A study of Arabidopsis thaliana with 9 samples.

Results

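The genes described here are 10 Arabidopsis thaliana genes for nitrogen uptake, assimilation and recycling, taken by locus from 33610 genes listed in each count file. They are the ammonium transporters AMT1;1 (AT4G13510) and AMT1;2 (AT1G64780), the urea transporter DUR3 (AT5G45380), the nitrate reductases NIA1 (AT1G77760) and NIA2 (AT1G37130), the nitrite reductase NIR1 (AT2G15620), the glutamine synthetases GLN1;1 (AT5G37600) and GLN2 (AT5G35630), the glutamate dehydrogenase GDH2 (AT5G07440) and the asparagine synthetase ASN1 (AT3G47340). All 10 passed the filter on low counts, which kept 22019 genes. The genes were selected on their expression levels across the 3 groups of these same libraries, so the levels and differences of these 10 genes are given as a description, with no test. Messenger RNA was sequenced from rosette leaves of ecotype Col-0, which were kept on soil at 22 °C with 8 h of light a day until the plants were 5 to 6 weeks old. The 3 groups of 3 libraries were untreated plants, mock-treated plants, and plants sprayed with Alternaria brassicicola strain MUCL 20297 at 1000000 spores per ml in 0.01% Silwet L-77, whose leaves were taken 3 days later. The labels used here do not give the content of the mock liquid, the harvest time of mock or untreated plants, or the number of plants behind a library. They call the libraries of a group biological replicates, and p-values measure the spread between these libraries only.

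Plants take up nitrogen mainly as nitrate, ammonium and urea. Nitrate reductase in the cytosol turns nitrate into nitrite, nitrite reductase in the plastid turns nitrite into ammonium, and glutamine synthetase joins ammonium to glutamate. In leaves the plastid isoform of glutamine synthetase is known for capturing ammonium from nitrate reduction and photorespiration, whereas cytosolic isoforms, glutamate dehydrogenase and asparagine synthetase are known for handling nitrogen freed from protein in ageing or carbon-starved leaves. Alternaria brassicicola is a fungus that kills leaf tissue and feeds on it.

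Alternaria leaves held more transcript of the urea transporter DUR3, the cytosolic glutamine synthetase GLN1;1, GDH2, ASN1 and AMT1;1 than both other groups, with fitted levels 4.07 to 17.0 times those of untreated leaves. They held less of the ammonium transporter AMT1;2, the plastid glutamine synthetase GLN2 and NIR1. Mock leaves lay between the other groups for DUR3, AMT1;2, GLN1;1, GLN2 and NIR1, in each case without overlap between any of the 3 groups. The nitrate reductases NIA1 and NIA2 had their highest mean in untreated leaves. Between Alternaria and mock leaves 6 of the 10 genes were higher in every Alternaria library, 3 were lower in every one and NIA2 overlapped, against 63.3% of all tested genes whose groups did not overlap (32.8% higher and 30.5% lower). Between mock and untreated leaves 2 were higher without overlap, 5 lower and 3 overlapped (44.7% of tested genes without overlap, 22.7% higher and 21.9% lower), and between Alternaria and untreated leaves 5 were higher, 4 lower and 1 overlapped (68.6%, 35% higher and 33.6% lower). Because these comparisons were in view when the genes were chosen, nothing is read from the counts.

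The libraries held 22713147 to 36061529 reads in genes. At that depth 3 reads, the most that a count of 0 allows, correspond to 0.0832 to 0.132 per 1000000 reads in genes, before scaling and with counting error only. Levels are given as counts per 1000000 reads in tested genes, with library sizes scaled (CPM). The leaf label was checked against marker genes. The 4 mesophyll markers summed to 35470 to 37060 CPM in untreated, 30560 to 32460 in mock and 18310 to 19150 in Alternaria libraries, and the 6 root markers to no more than 1.97 CPM in any library, with MYB36 at 0 reads in 4 libraries. All 4 mesophyll markers and all 3 epidermis markers fell in Alternaria against mock leaves (edgeR's quasi-likelihood test, adjusted p under 0.05), and the epidermis sum was 459 to 498 CPM in untreated, 354 to 371 in mock and 198 to 216 in Alternaria libraries. Of 5 phloem markers 3 rose between mock and Alternaria leaves, with sums of 335 to 397 and 452 to 478 CPM, against 493 to 541 in untreated libraries. Of 4 guard cell markers 1 fell, with sums of 41.3 to 43.7 and 30.05 to 34.9 CPM, against 42.4 to 53.9 in untreated libraries. Over all tested genes 29.5% rose and 26.1% fell between mock and Alternaria leaves. Nothing is read from the numbers of markers called beside these shares. Genes of the plastid chromosome held 4.66 to 5.97% of reads in genes in untreated, 3.51 to 4.34% in mock and 2.66 to 3.22% in Alternaria libraries. The part of these shifts in the levels given below was not tested, and in whole leaves fewer cells of a type and less RNA per cell cannot be told apart.

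The stretches of 250 bases before the annotated start are shown for 5 genes, chosen after their levels were seen, for how they stepped across the groups: DUR3 and GLN1;1 were highest and AMT1;2 and GLN2 lowest in Alternaria leaves with mock leaves between, and ASN1 was high in Alternaria leaves with mock and untreated leaves overlapping. The sequences come from RefSeq's TAIR10.1 assembly and run 5′ to 3′ on the strand of the gene. Capitals mark every match, on either strand, to a W-box (TTGACC or TTGACT, known as the binding sequence of WRKY factors), a G-box (CACGTG, bound by bZIP and bHLH factors), ACTCAT (described for bZIP factors in the proline dehydrogenase promoter) or GATAAG (known from sequences bound by GATA-type factors), and no 2 matches overlap in the stretches shown.
DUR3, chr5:18390692-18390941, plus strand: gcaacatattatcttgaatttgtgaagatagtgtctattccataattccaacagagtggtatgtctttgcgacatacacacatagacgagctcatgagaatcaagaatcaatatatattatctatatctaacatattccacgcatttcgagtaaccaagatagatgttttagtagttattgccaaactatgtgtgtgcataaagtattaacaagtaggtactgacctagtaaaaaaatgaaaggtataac
AMT1;2, chr1:24062805-24063054, minus strand: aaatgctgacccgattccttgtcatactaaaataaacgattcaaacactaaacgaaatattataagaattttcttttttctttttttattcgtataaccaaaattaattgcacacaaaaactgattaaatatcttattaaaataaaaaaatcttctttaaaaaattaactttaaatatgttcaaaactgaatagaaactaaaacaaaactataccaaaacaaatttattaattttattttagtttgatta
GLN1;1, chr5:14935886-14936135, minus strand: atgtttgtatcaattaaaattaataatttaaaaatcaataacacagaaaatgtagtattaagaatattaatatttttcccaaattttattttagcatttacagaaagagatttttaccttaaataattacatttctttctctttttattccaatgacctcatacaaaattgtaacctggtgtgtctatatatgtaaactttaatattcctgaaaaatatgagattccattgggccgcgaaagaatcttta
GLN2, chr5:13830179-13830428, plus strand: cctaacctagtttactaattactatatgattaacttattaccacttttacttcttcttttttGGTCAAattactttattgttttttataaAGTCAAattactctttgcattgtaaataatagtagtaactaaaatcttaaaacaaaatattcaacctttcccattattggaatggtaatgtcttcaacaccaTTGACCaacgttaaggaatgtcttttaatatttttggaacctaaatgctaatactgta
ASN1, chr3:17441432-17441681, minus strand: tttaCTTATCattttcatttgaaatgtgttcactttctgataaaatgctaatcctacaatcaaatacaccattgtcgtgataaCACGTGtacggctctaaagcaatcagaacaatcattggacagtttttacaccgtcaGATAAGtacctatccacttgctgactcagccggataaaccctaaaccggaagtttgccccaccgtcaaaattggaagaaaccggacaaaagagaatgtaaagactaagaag
The GLN2 stretch held 3 W-boxes, and the ASN1 stretch held 1 G-box and 2 GATAAG sequences. These letters were not in the DUR3, AMT1;2 and GLN1;1 stretches. Of the other 5 genes, AMT1;1 held 1 W-box and 1 GATAAG, NIA2 and NIR1 held 1 W-box each, NIA1 held 1 ACTCAT and GDH2 held none. Over 27431 promoter stretches of the same length, 28.4% held a W-box, 6.49% a G-box, 12.3% ACTCAT and 12.3% GATAAG. The ASN1 stretch also overlaps another gene model, AT3G47341, and the AMT1;1 stretch overlaps 2, AT4G13500 and AT4G13505. A match describes letters and not a bound site.

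Among the uptake genes, DUR3, a proton-coupled symporter that carries urea into cells, had the largest fold difference of the 10 between untreated and Alternaria leaves. DUR3 lies at chr5:18390942-18395928 with 10 exons. Its level was 6.96, 5.31 and 5.02 CPM in untreated replicates 1, 2 and 3, then 15.3, 12.6 and 15 in mock and 89.8, 101.5 and 100.5 in Alternaria libraries. Every mock library lay above every untreated one, and every Alternaria library above every mock one. The log2 change was 1.32 ± 0.12 (SE, n = 3 per group, as below) from untreated to mock and 2.76 ± 0.11 from mock to Alternaria leaves, 4.08 ± 0.12 over both steps. In the authors' deposited table, from DESeq2 with a design that is not stated, the step from mock to Alternaria was 2.75 ± 0.11 on the log2 scale.

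AMT1;2, a high-affinity ammonium transporter known from the root cortex and endodermis, differed in the opposite direction. It is a single-exon gene at chr1:24060640-24062804. Its level was 211, 215 and 174 CPM in untreated libraries, 71.2, 70.9 and 73.4 in mock and 19.4, 21.0 and 20.2 in Alternaria libraries. The 3 groups did not overlap, and within the mock and Alternaria groups the libraries lay close together. From untreated to mock its log2 change was -1.48 ± 0.08 and from mock to Alternaria -1.83 ± 0.09, so the mean in Alternaria leaves was lower by 9.89-fold than in untreated leaves.

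AMT1;1, the high-affinity transporter of root hairs and outer root cells that is also found in leaves, had few reads, from 36 to 289 in a library. Its level was 3.25, 1.61 and 1.51 CPM in untreated, 2.36, 2.52 and 1.84 in mock and 8.12, 8.16 and 9.17 in Alternaria libraries. The Alternaria libraries stood above all others, and mock and untreated libraries overlapped. The log2 change from mock to Alternaria was 1.93 ± 0.23. From untreated to mock it was 0.10 ± 0.26, with 0.52 without untreated replicate 1 and -0.08 without untreated replicate 2 or untreated replicate 3. AMT1;1 overlaps the opposite-strand gene AT4G13505, which had at most 5 reads in a library. The strand setting of the authors' counting is not given in the sources used here.

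**Figure D1:**
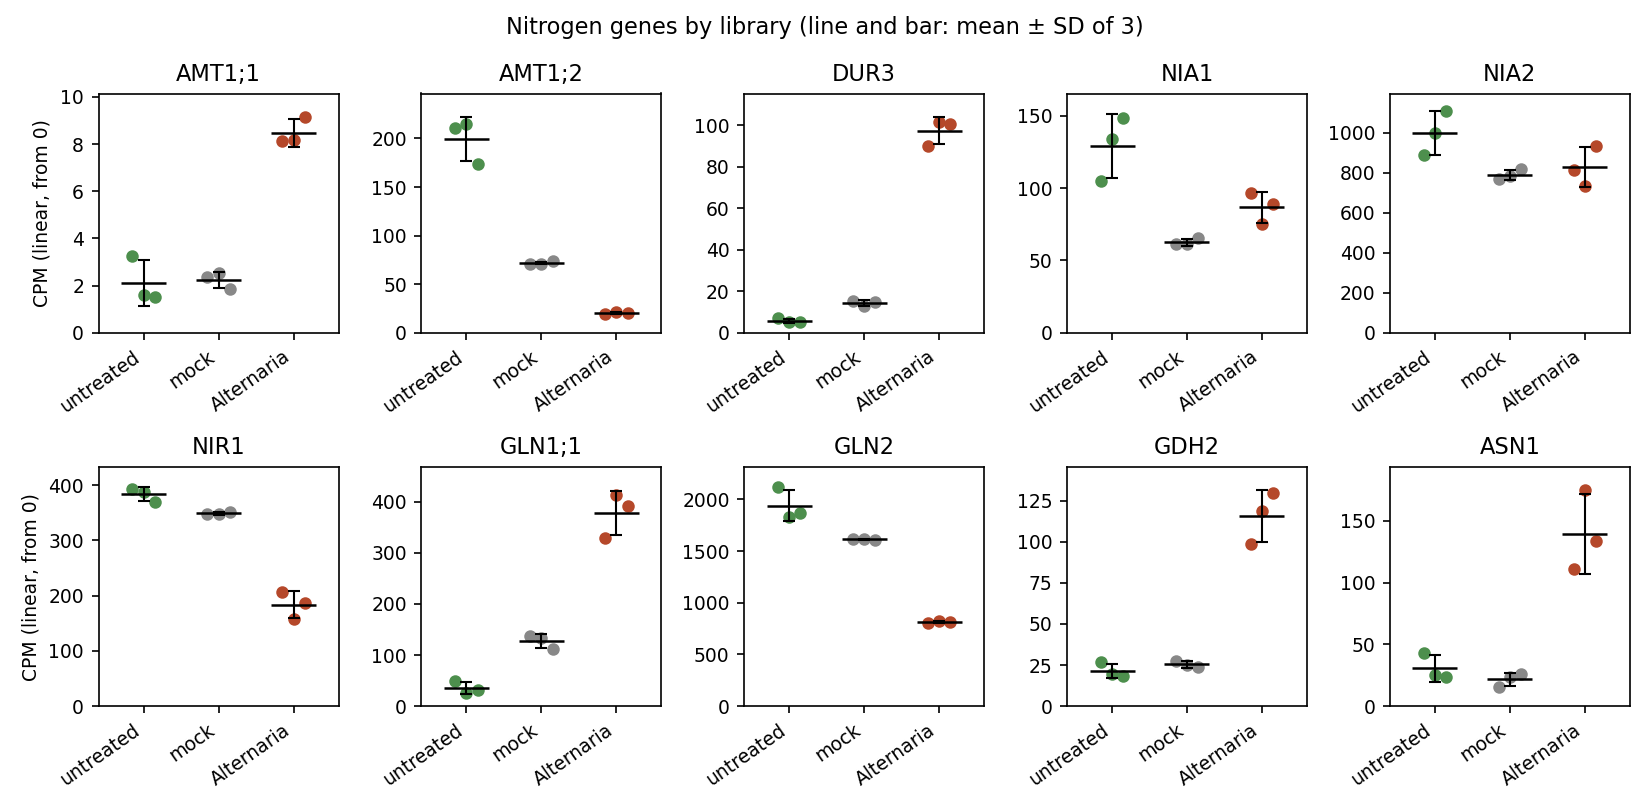
Level of each of the 10 nitrogen genes in each library (y axis, CPM on a linear scale from 0, a separate scale per gene) by group (x axis). Points are libraries, and lines with bars are the mean ± SD of 3 libraries. DUR3 and GLN1;1 step up and AMT1;2, GLN2 and NIR1 step down from untreated through mock to Alternaria leaves, while GDH2, ASN1 and AMT1;1 are high in the Alternaria libraries.

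Set per kilobase of exon, on which scale genes can be compared, the family of 6 AMT genes had a different makeup in each group. AMT1;2 held 90.4% ± 1.495 (SD, n = 3) of the summed AMT level in untreated, 69.2% ± 1.4 in mock and 22.4% ± 1.55 in Alternaria leaves. AMT1;1 held 1.18% ± 0.47, 2.69% ± 0.45 and 11.7% ± 0.13 in the same order. The largest share in Alternaria leaves belonged to AMT2;1 (AT2G38290), a transporter of a separate clade, at 62.75% ± 1.39, against 6.25% ± 1.3 in untreated and 23.1% ± 0.75 in mock leaves. AMT2;1 itself rose between mock and Alternaria leaves by 1.24 ± 0.13 on the log2 scale (edgeR adjusted p = 3.7e-06, higher in 3 of 3 libraries) and between untreated and mock leaves by 0.81 ± 0.13 (edgeR adjusted p = 0.00097). The summed level was 102 ± 11.1 CPM per kb in untreated, 47.9 ± 0.77 in mock and 41.7 ± 2.72 in Alternaria leaves.

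Nitrate reduction was carried by 3 of the genes. NIA2, known as the main nitrate reductase of leaves, was among the most abundant: 888, 999.9 and 1108 CPM in untreated, 766, 782 and 818 in mock and 815, 734 and 932 in Alternaria libraries. Mock lay below untreated without overlap, and Alternaria overlapped both. NIA2 differed by -0.34 ± 0.10 on the log2 scale from untreated to mock, and from mock to Alternaria 0.07 ± 0.10, which turned to -0.11 under upper-quartile scaling and to -0.02 without Alternaria replicate 3. Upper-quartile scaling moved the median of all tested genes by -0.17 in that comparison and by -0.20 in Alternaria against untreated.

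NIA1, the second nitrate reductase, was lowest in mock leaves without overlap, alone among the 10. Its level was 105, 134 and 149 CPM in untreated, 61.2, 61.3 and 65.3 in mock and 96.4, 74.9 and 88.8 in Alternaria libraries. Untreated was highest, and no 2 groups overlapped. The log2 change was -1.05 ± 0.12 from untreated to mock and 0.47 ± 0.12 from mock to Alternaria, and 0.30 for the latter under upper-quartile scaling. Per kilobase of exon NIA2 held 88.4% ± 0.75 of the 2 nitrate reductases in untreated, 92.5% ± 0.07 in mock and 90.35% ± 0.97 in Alternaria leaves.

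NIR1 encodes the plastid enzyme that takes the product of nitrate reductase to ammonium. Its level was 393, 388 and 370.2 CPM in untreated, 347, 348 and 351 in mock and 207, 158 and 186 in Alternaria libraries. The groups did not overlap, and the gap between untreated and mock was small beside that to Alternaria. Its log2 change was -0.14 ± 0.09 from untreated to mock and -0.92 ± 0.09 from mock to Alternaria. The mean level was lower by 1.898-fold in Alternaria than in mock leaves, while the 2 nitrate reductases summed to 285 ± 33.1 and 266 ± 9.05 CPM per kb of exon, with overlapping spreads.

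The plastid and the cytosolic glutamine synthetase differed between groups in opposite directions. GLN2, the plastid isoform, was 2116, 1832 and 1871 CPM in untreated, 1616, 1616 and 1603 in mock and 806, 828 and 810.4 in Alternaria libraries. It was the most abundant of the 10 genes per kilobase in all 3 groups, and the groups did not overlap. The log2 change was -0.27 ± 0.07 from untreated to mock and -0.98 ± 0.07 from mock to Alternaria.

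GLN1;1, a cytosolic isoform known for high affinity to ammonium, was 48.4, 24.8 and 32.6 CPM in untreated, 137, 134 and 111 in mock and 329.9, 414 and 391 in Alternaria libraries. Every mock library lay above every untreated one and every Alternaria library above every mock one. GLN1;1 differed by 1.86 ± 0.19 on the log2 scale from untreated to mock, by 1.57 ± 0.18 from mock to Alternaria and 3.43 ± 0.20 over both steps. The authors' deposited table, from DESeq2 with a design that is not stated, gave 1.54 ± 0.25 for the step from untreated to mock. No 50-base stretch of the exons of GLN1;1, or of any other of the 10 genes, occurs elsewhere in TAIR10.1.

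Per kilobase, GLN2 held 77.2% ± 0.88 of the level summed over 6 glutamine synthetase genes in untreated, 68.9% ± 0.27 in mock and 41.0% ± 2.398 in Alternaria leaves. GLN1;1 held 1.84% ± 0.50, 7.19% ± 0.78 and 25.1% ± 1.21, and the cytosolic GLN1;2 held 18.55% ± 1.24, 20.5% ± 0.90 and 29.4% ± 1.17. GLN1;2 rose by 0.29 ± 0.08 between mock and Alternaria leaves (edgeR adjusted p = 0.0082), a call that was lost under upper-quartile scaling (adjusted p = 0.22) and without Alternaria replicate 2 (adjusted p = 0.052). The sum over the family was 1195 ± 80.8 CPM per kb in untreated, 1114 ± 6.32 in mock and 948 ± 66.0 in Alternaria leaves.

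**Figure D2:**
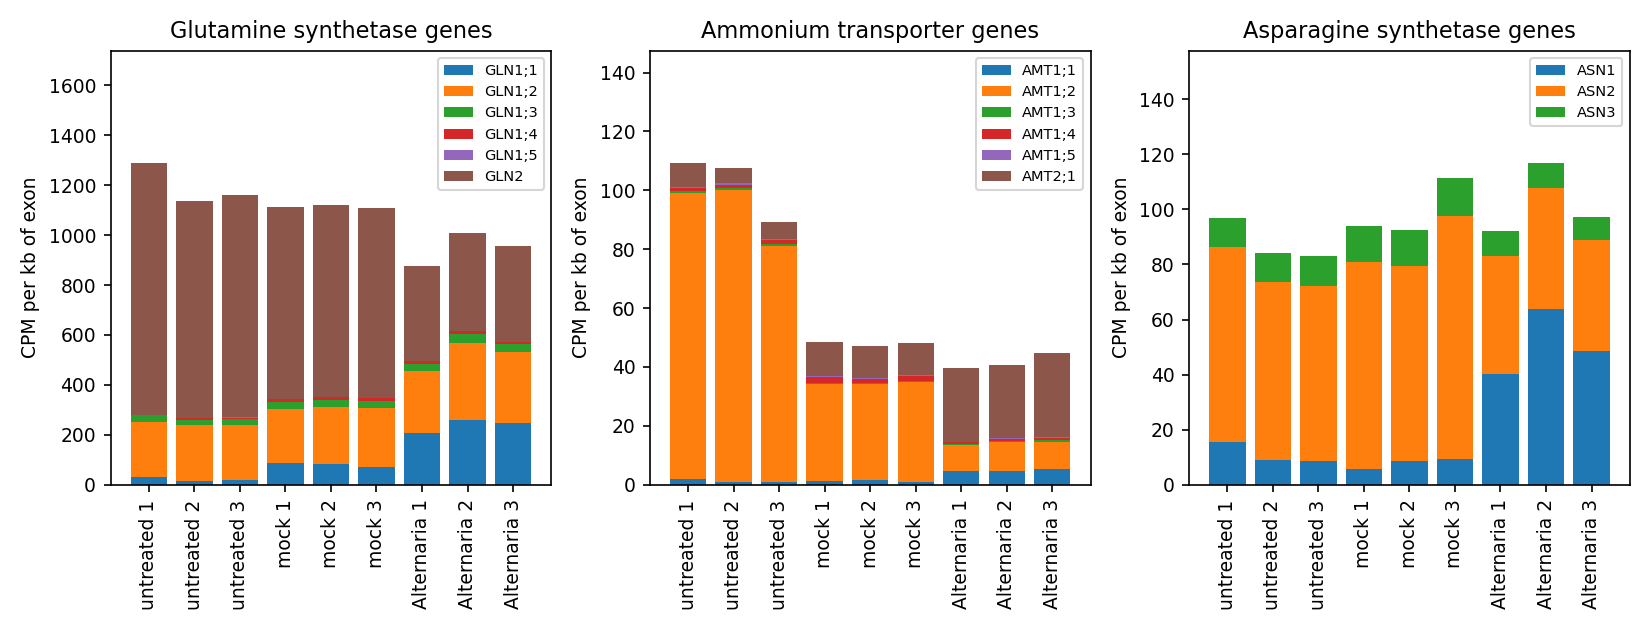
Level of each gene of the glutamine synthetase, ammonium transporter and asparagine synthetase families in each library (y axis, CPM per kb of exon from 0, stacked) for the 9 libraries (x axis). GLN2 holds 77.2% of its family in untreated and 41.0% in Alternaria leaves, AMT1;2 90.4% and 22.4%, and ASN1 12.5% and 49.4%.

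Of the genes for nitrogen recycling, GDH2 encodes a subunit of the mitochondrial glutamate dehydrogenase, which releases ammonium from glutamate. Its level was 26.6, 19.3 and 18.5 CPM in untreated, 27.8, 24.8 and 23.8 in mock and 98.6, 118 and 129.9 in Alternaria libraries. Mock and untreated libraries overlapped, and all Alternaria libraries stood above both. For GDH2 the log2 change was 2.18 ± 0.14 from mock to Alternaria and 0.25 ± 0.14 from untreated to mock.

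Within its family GDH2 held 26.9% ± 1.62 of the level per kilobase in untreated, 32.8% ± 1.499 in mock and 51.7% ± 2.53 in Alternaria leaves. GDH1, the other main subunit gene, rose by 1.34 ± 0.13 between mock and Alternaria leaves (edgeR adjusted p = 2.6e-06), and GDH3 fell by 1.64 ± 0.23 on the log2 scale (edgeR adjusted p = 5.7e-05). The summed level was 39.35 ± 6.02 CPM per kb in untreated, 38.5 ± 2.29 in mock and 111 ± 12.9 in Alternaria leaves.

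ASN1, also known as a dark- and sugar-starvation-induced gene, makes asparagine, a nitrogen-rich amino acid used for transport. Its level was 43.1, 25.1 and 23.5 CPM in untreated, 15.9, 23.3 and 25.7 in mock and 111, 175 and 134 in Alternaria libraries. The lowest Alternaria library lay above the highest of the others, and mock and untreated libraries overlapped. The log2 change was 2.69 ± 0.24 from mock to Alternaria. From untreated to mock it was -0.49 ± 0.24, and -0.16 without untreated replicate 1, the highest untreated library. ASN1 overlaps the opposite-strand gene AT3G47341, which had at most 3 reads in a library.

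ASN2 (AT5G65010), the asparagine synthetase known as light-induced, differed in the opposite direction to ASN1 and fell by 0.88 ± 0.09 on the log2 scale between mock and Alternaria leaves (edgeR adjusted p = 2.6e-06, lower in 3 of 3 libraries). ASN1 held 12.5% ± 3.27 of the family's level per kilobase in untreated, 7.91% ± 1.57 in mock and 49.4% ± 5.45 in Alternaria leaves, and ASN2 75.4% ± 2.02, 78.8% ± 1.801 and 41.8% ± 4.18. The summed level was 87.9 ± 7.63 CPM per kb in untreated, 99.2 ± 10.4 in mock and 102 ± 12.9 in Alternaria leaves, so the spreads of the sums overlapped.

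**Figure D3:**
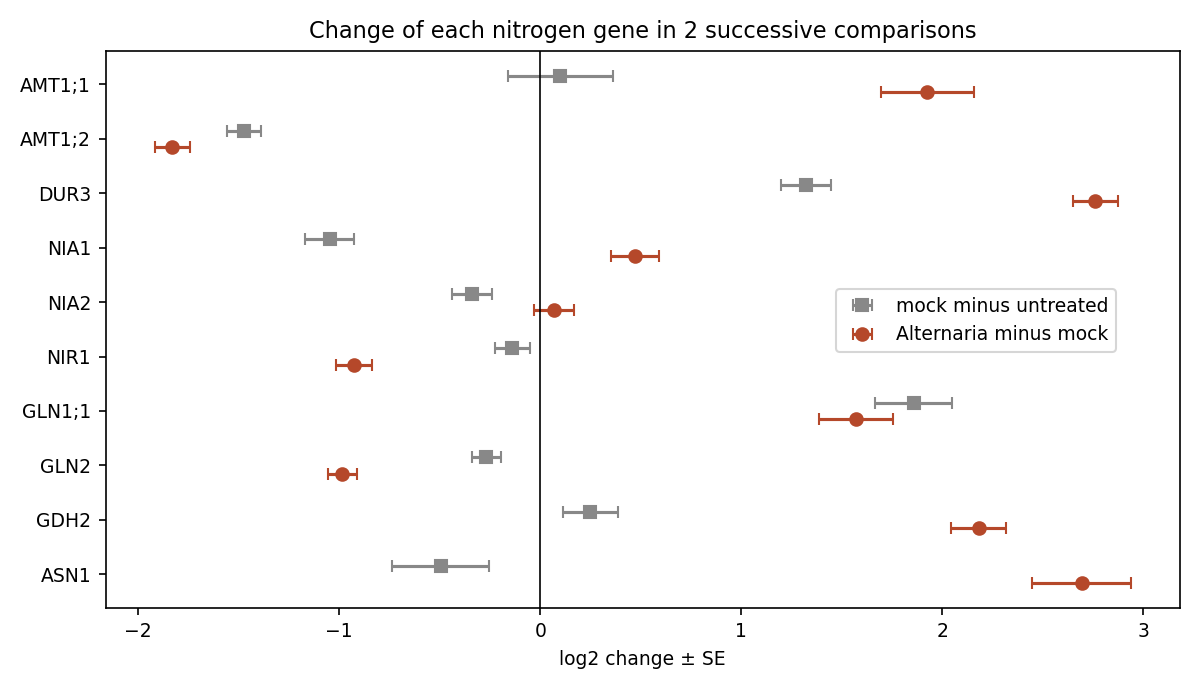
Log2 change ± SE (x axis) of each of the 10 nitrogen genes (y axis) from untreated to mock (grey squares) and from mock to Alternaria leaves (red circles), from 1 fit over all 9 libraries. DUR3 and GLN1;1 lie to the right in both steps (1.32 and 2.76, 1.86 and 1.57), AMT1;2 to the left in both (-1.48 and -1.83), and NIA1 on opposite sides (-1.05 and 0.47). Both steps share the mock libraries.

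Untreated replicate 1 was the highest untreated library for AMT1;1, DUR3, NIR1, GLN1;1, GLN2, GDH2 and ASN1, and the lowest for NIA1 and NIA2. Without it the change from untreated to mock was 2.16 for GLN1;1, 1.47 for DUR3, 0.43 for GDH2, -0.20 for GLN2 and -1.17 for NIA1 on the log2 scale, and none of the 10 changed sign.

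Per kilobase of exon the 10 genes stood in a different order in each of 2 groups. In untreated leaves the mean level ran from GLN2 (923 CPM per kb) through NIA2 (312), NIR1 (175), AMT1;2 (92.2), NIA1 (41.0), GLN1;1 (22.2), ASN1 (11.1), GDH2 (10.6) and DUR3 (2.102) to AMT1;1 (1.22), where the libraries of ASN1 overlapped those of GLN1;1 and GDH2, and those of DUR3 overlapped those of AMT1;1. In Alternaria leaves it ran from GLN2 (388) through NIA2 (258), GLN1;1 (238), NIR1 (83.8), GDH2 (57.3), ASN1 (50.9), DUR3 (35.5), NIA1 (27.5) and AMT1;2 (9.33) to AMT1;1 (4.89). There the libraries of NIA2 and GLN1;1 overlapped, as did those of GDH2 and ASN1. AMT1;2 stood above NIA1 and GLN1;1 in untreated leaves and below both, and below DUR3, in Alternaria leaves.

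Genes with the most similar profile were sought among 14739 genes with a mean of at least 5 CPM, by the root mean square difference in log2 CPM over the 9 libraries after each gene was centred on its own mean. Profiles were not scaled, so within a fixed distance a gene that differs little between groups has more neighbours. The nearest gene to GLN2 was SCO1 (AT1G62750), a translation elongation factor, at a difference of 0.04, and 1306 genes lay within 0.25. NIR1 had 1527 and NIA2 3672 genes within that distance. ASN1 and GLN1;1 had 0 and 1 gene within 0.25. Scatter within a group adds to the difference, as in untreated libraries for ASN1 (43.1, 25.1 and 23.5 CPM) and GLN1;1 (48.4, 24.8 and 32.6). These low counts are therefore not read as rare patterns. The nearest to ASN1 was AT1G76590, a PLATZ transcription factor gene, at 0.26, and the nearest to GLN1;1 was AT5G64120, a peroxidase gene, at 0.24. DUR3 had 9 genes within 0.25, led by the leucine-rich repeat kinase gene AT5G59680 at 0.18, and AMT1;2 had 18, led by AT5G55620 at 0.13 and the 4-coumarate:CoA ligase gene 4CL3 at 0.15. AMT1;1 had 56, led by the receptor lectin kinase gene AT2G37710 at 0.13, GDH2 had 124, led by the aminophospholipid ATPase gene ALA1 at 0.09, and NIA1 had 88, with the amino acid permease gene AAP5 second at 0.14.

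The rest of nitrogen metabolism was read from 134 other genes in 8 lists, of which 125 were tested. The lists were chosen with earlier results of these data known. Nothing is therefore read from a share of a list, here or below, beside the share of all genes. Between mock and Alternaria leaves 64 rose and 26 fell (edgeR adjusted p under 0.05 over all 22019 genes), which is 72.0% of those tested against 55.6% of all genes (29.5% higher and 26.1% lower). Under upper-quartile scaling 54 rose and 34 fell, while over all genes 4937 rose and 8114 fell in place of 6489 and 5752. The median log2 change was 0.29, against -0.02 over all tested genes. Between untreated and mock leaves 28 rose and 28 fell, 44.8% against 29.3% of all genes (15.1% higher and 14.1% lower), and the number that rose was 17 without untreated replicate 2. Between untreated and Alternaria leaves 66 rose and 35 fell, 80.8% against 64.9% (33.1% higher and 31.8% lower).

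Of 18 tested genes on the list of amino acid breakdown and proline genes 16 rose between mock and Alternaria leaves and 0 fell, with 2 not past the threshold and a median of 0.84 on the log2 scale. The share called was 88.9%, against 55.6% of all tested genes (29.5% higher and 26.1% lower). All 18 had a log2 change above 0 in edgeR, and DESeq2 called 0 lower. The list mixes breakdown genes with the proline synthesis genes P5CS1, P5CS2 and P5CR, of which P5CS1 and P5CR, named after their values were seen, were the 2 not past the threshold. BCAT2, a branched-chain aminotransferase, was 2.37, 2.23 and 2.43 CPM in untreated, 3.41, 4.27 and 4.32 in mock and 30.2, 35.7 and 45.6 in Alternaria libraries, a rise of 3.22 ± 0.15 between mock and Alternaria (edgeR adjusted p = 1.2e-08). PRODH1, proline dehydrogenase, rose by 1.55 ± 0.18 (edgeR adjusted p = 1e-05) and AT5G38710 by 2.36 ± 0.18 (edgeR adjusted p = 2.7e-07). P5CS2 fell by 0.93 ± 0.09 between untreated and mock leaves (edgeR adjusted p = 1.6e-05) and rose by 0.36 ± 0.09 to Alternaria (edgeR adjusted p = 0.0035, and 0.056 under upper-quartile scaling).

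Of 18 tested amino acid transporters 11 rose between mock and Alternaria leaves and 1 fell, with 2 falls under upper-quartile scaling and without mock replicate 1. In the main fit 66.7% were called, against 55.6% of all tested genes (29.5% higher and 26.1% lower). LHT1, which takes amino acids into leaf mesophyll and root cells, was 5.25, 2.52 and 4.02 CPM in untreated, 7.10, 8.78 and 6.58 in mock and 62.8, 67.7 and 86.2 in Alternaria libraries. It rose by 3.28 ± 0.19 between mock and Alternaria (edgeR adjusted p = 4.1e-08), LHT7 by 3.55 ± 0.21 (edgeR adjusted p = 5.3e-08) and the cationic amino acid transporter CAT1 by 3.32 ± 0.28 (edgeR adjusted p = 7.7e-07). The 3 groups did not overlap for any of these transporters.

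Beside GLN1;1, GLN2 and GDH2, 11 other genes of glutamine and glutamate metabolism were tested. Of these 5 rose and 3 fell between mock and Alternaria leaves, 72.7% against 55.6% of all tested genes. Under upper-quartile scaling 3 rose and 5 fell, and 3 rose without Alternaria replicate 2. GLU1, the ferredoxin-dependent glutamate synthase that works with GLN2 in leaf plastids, fell by 0.63 ± 0.08 on the log2 scale (edgeR adjusted p = 1.7e-05). GLU2, its second gene, rose by 0.72 ± 0.08 (edgeR adjusted p = 7.1e-06), and GLT1, the NADH-dependent form, by 0.56 ± 0.11 (edgeR adjusted p = 0.00096). GLN1;3 was higher by 0.27 ± 0.08 (edgeR adjusted p = 0.015, and 0.31 under upper-quartile scaling). It also lost the call without mock replicate 1, mock replicate 2 or Alternaria replicate 2, at adjusted p = 0.055, 0.053 and 0.097. GLN1;4 rose between untreated and mock leaves by 1.22 ± 0.18 (edgeR adjusted p = 0.00042).

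Of 16 tested genes for asparagine, aspartate, alanine and GABA, 6 rose and 5 fell between mock and Alternaria leaves, 68.75% against 55.6% of all tested genes. ASPGB1, an asparaginase that breaks down the product of ASN1, fell by 1.78 ± 0.25 on the log2 scale (edgeR adjusted p = 4.8e-05) after a rise of 0.99 ± 0.24 from untreated to mock (edgeR adjusted p = 0.0085). The glutamate decarboxylase GAD1 rose by 1.69 ± 0.19 (edgeR adjusted p = 9.4e-06) and the alanine aminotransferase ALAAT2 by 1.4035 ± 0.14 (edgeR adjusted p = 2.6e-06) between mock and Alternaria leaves.

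Nitrate transporters went both ways. Of 20 tested genes 6 rose and 9 fell between mock and Alternaria leaves, and 2 rose and 9 fell between untreated and mock leaves, with 1 rise in the latter without untreated replicate 2 or untreated replicate 3. The shares called in the main fit were 75.0% and 55.0%, against 55.6% and 29.3% of all tested genes. NRT1.1, the dual-affinity nitrate transporter and sensor, fell by 0.72 ± 0.09 on the log2 scale between mock and Alternaria (edgeR adjusted p = 2.1e-05). AT3G21670, for which RefSeq's TAIR10.1 gene table gives the synonym NPF6.4, was 497, 436 and 369 CPM in untreated, 192, 191.5 and 206 in mock and 80.3, 84.5 and 86.6 in Alternaria libraries, and fell in both steps, by 1.14 ± 0.10 (edgeR adjusted p = 7.2e-06) and 1.23 ± 0.10 (edgeR adjusted p = 4.1e-07). NRT1.7, which loads nitrate into the phloem of old leaves, fell by 0.62 ± 0.14 from untreated to mock (edgeR adjusted p = 0.005) and rose by 1.00 ± 0.13 from mock to Alternaria (edgeR adjusted p = 3.8e-05). NRT1.8, which removes nitrate from xylem sap, rose by 1.65 ± 0.30 (edgeR adjusted p = 0.00045), NRT3.1, a partner protein of high-affinity transporters, by 1.77 ± 0.21 (edgeR adjusted p = 1.2e-05) and CLCa, the vacuolar nitrate exchanger, by 1.22 ± 0.10 (edgeR adjusted p = 4.5e-07). NRT2.1, the root high-affinity transporter, lay between 0.245 and 1.31 CPM in all libraries, with a log2 difference of -0.14 ± 0.50 between mock and Alternaria (edgeR adjusted p = 0.84).

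Among 10 tested ammonium and urea genes 3 rose and 2 fell between mock and Alternaria leaves, and 5 were not past the threshold. Over all tested genes 55.6% were called (29.5% higher and 26.1% lower). In this list 1 gene fell without mock replicate 2, mock replicate 3 or Alternaria replicate 3. The risers were AMT2;1, the urease gene URE (0.91 ± 0.09, edgeR adjusted p = 2.3e-06) and the urease accessory gene UREG (0.73 ± 0.08, edgeR adjusted p = 1.1e-05), the first for the enzyme that splits urea and the second for a protein that activates it. ARGAH2, an arginase that produces urea, rose by 1.124 ± 0.09 between untreated and mock leaves (edgeR adjusted p = 6.5e-06). From mock to Alternaria leaves ARGAH2 was among those that fell, by 0.27 ± 0.09 on the log2 scale (edgeR adjusted p = 0.024). That call was lost without mock replicate 2, mock replicate 3 or Alternaria replicate 3, at edgeR adjusted p = 0.072, 0.11 and 0.1.

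Of 13 tested genes for the cofactors and reductants of nitrate and nitrite reductase 6 rose and 2 fell between mock and Alternaria leaves, with 1 fall without mock replicate 1, mock replicate 2, Alternaria replicate 2 or Alternaria replicate 3. In the main fit 61.5% were called, against 55.6% of all tested genes. The molybdenum cofactor genes CNX2, CNX1 and CNX7 rose by 0.83 ± 0.09 (edgeR adjusted p = 8.1e-06), 0.57 ± 0.08 (edgeR adjusted p = 4.1e-05) and 0.54 ± 0.12 (edgeR adjusted p = 0.0023). G6PD2, a glucose-6-phosphate dehydrogenase, fell by 0.76 ± 0.08 on the log2 scale between untreated and mock leaves (edgeR adjusted p = 3.4e-05). It then rose by 0.53 ± 0.08 from mock to Alternaria leaves (edgeR adjusted p = 8.2e-05), as 1 of the 6.

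Of 19 tested regulators of nitrogen responses 11 rose and 4 fell between mock and Alternaria leaves, 78.95% against 55.6% of all tested genes. ATL31, a ubiquitin ligase of the carbon and nitrogen balance, was 6.32, 3.47 and 3.26 CPM in untreated, 4.74, 5.91 and 4.94 in mock and 50.01, 63.5 and 82.7 in Alternaria libraries. It rose by 3.66 ± 0.22 between mock and Alternaria (edgeR adjusted p = 5.8e-08). AT1G25550, a MYB-like factor gene, fell by 0.74 ± 0.15 from untreated to mock (edgeR adjusted p = 0.0031) and rose by 1.98 ± 0.15 to Alternaria (edgeR adjusted p = 3.3e-07), and TGA1, a bZIP factor of nitrate and defence responses, rose by 1.23 ± 0.09 (edgeR adjusted p = 2.1e-07). NLP2, of the NIN-like nitrate regulators, fell by 0.80 ± 0.10 between untreated and mock leaves (edgeR adjusted p = 0.0001). bZIP1, a factor known to act on ASN1, had 0 reads in all 9 libraries, as did 4 related bZIP genes. In RefSeq's TAIR10.1 annotation no other gene model overlapped bZIP1 or bZIP53. The annotation release behind the counts is not stated, and whether reads of these genes could be counted was not tested. The 0 is therefore given as listed and not as a limit on expression.

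**Figure D4:**
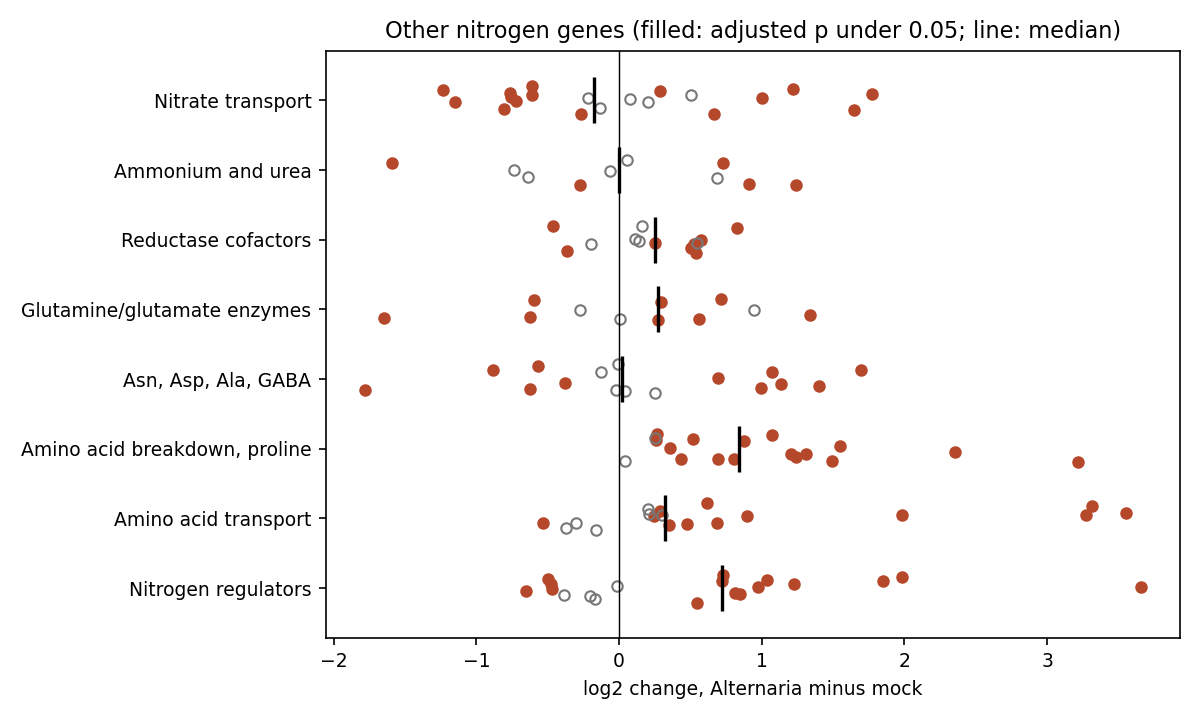
Log2 change from mock to Alternaria leaves (x axis) of the 125 other tested nitrogen genes in 8 lists (y axis). Each point is a gene, filled where edgeR's adjusted p is under 0.05, and the black lines are list medians. All filled points of amino acid breakdown and proline genes lie to the right of 0 (median 0.84), whereas nitrate transport has 6 filled points to the right and 9 to the left.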

How the data were processed

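Per the submitters' processing notes, FastQC, TopHat2 2.0.12, the TAIR10 build, HTSeq and DESeq2 1.8.2 were used. Per the labels, polyadenylated RNA from 3 µg of total RNA went into ScriptSeq v2 libraries of 250 to 650 bp. No source used here states the strand setting, the annotation release or the DESeq2 design. The authors deposited raw counts per gene, 1 file per library, and tables of log2 fold changes with their standard errors (lfcSE).

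Rows that name no gene (7.73 to 11.2% of counts in a library) were dropped. Genes were filtered with edgeR's filterByExpr (minimum count 10), scaled by TMM and fitted with edgeR 4.0.16 (R 4.3.3, limma 3.58.1) in a single quasi-likelihood model of the 9 libraries, with 6 residual degrees of freedom and a biological coefficient of variation of 0.107. Adjusted p is Benjamini-Hochberg over all 22019 tested genes, threshold 0.05. An SE is the log2 change over the root of its F statistic. CPM used TMM-scaled library sizes, and log2 CPM a prior count of 2. Names, exon lengths and promoters came from RefSeq's TAIR10.1 annotation, which named 28932 of 33610 genes. The count files hold no coordinates. The procedure was tested on simulated counts with 200 changed genes, far fewer than the 12241 called between mock and Alternaria leaves. That run therefore does not cover scaling or error rates where so many genes change.

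The 10 genes, the 8 lists and the 5 marker lists were chosen with earlier results of these data known. Besides the 10, each list names up to 3 genes with the largest change from mock to Alternaria and up to 2 from untreated to mock, among those past the threshold whose groups did not overlap and whose mean reached 5 CPM. NRT1.1, NRT1.7, NRT1.8, NRT2.1, AMT2;1, GLN1;2, GLN1;3, GLU1, GLT1, GDH1, ASN2, bZIP1, LHT1 and PRODH1 were named whatever their values. Not tested for low counts were NRT1.6, NRT2.2, NRT2.4, NRT2.7, SLAH1, AAP8, bZIP1 and bZIP53, and AT4G24720 was not analysed here. Numbers of genes called and log2 changes of the 10 and the named genes were recomputed under other settings. These were RLE or upper-quartile scaling, no or a stricter low-count filter (minimum 50), DESeq2 1.42.0 and fits of 6 libraries. A replicate block, a fit without organelle genes and fits without each library in turn were also used. Family shares and sums, list medians, similar profiles, marker values and overlap between groups came from the main processing alone. Python 3.11.15, numpy 2.4.6, pandas 2.3.3 and matplotlib 3.10.9 made tables and figures.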

Additional observations from a re-analysis of the deposited data

How the results depend on the processing

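The numbers of other nitrogen genes called in each direction and of all genes called stayed within 1.5 times the reported count under every alternative but 1: the 28 that rose from untreated to mock leaves were 17 without untreated replicate 2, and ranged from 17 to 35 over the 9 leave-outs. The cause was not tested. Same-numbered libraries did not deviate together (r from -0.065 to 0.034 between their deviations from the group means), so the numbers were not taken to pair the libraries. With a replicate block 64 rose and 25 fell from mock to Alternaria, 29 and 27 from untreated to mock, and 66 and 35 from untreated to Alternaria, while all genes called numbered 11940, 6020 and 13942 against 12241, 6442 and 14288. Among values of named genes other than the 10, 892 under other settings and 981 under leave-outs kept their direction and side of the threshold, 9 and 34 lost the call and 8 and 11 gained it. Log2 changes of the 10 genes moved by more than the spread between libraries in 16 of 240 values under other settings and 3 of 270 under leave-outs. Depth limits genes with few reads, among them AMT1;1 (36 to 289 reads in a library) and NRT2.1.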

Other observations

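The 5 related factor genes bZIP1, bZIP2, bZIP11 (annotated GBF6), bZIP44 and bZIP53 each had 0 reads in all 9 libraries. bZIP2, bZIP11 and bZIP44 were looked up after bZIP1 and bZIP53 were seen to have no reads. Each of these genes is known to carry an upstream open reading frame that responds to sucrose. Any link between that frame and the 0 reads was not tested. No other listed nitrogen gene that is in the count files had 0 reads in every library.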
